A study of Homo sapiens with 21 samples.

Results

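KLE, a line of human endometrial carcinoma cells, was compared between 3 arrays of cells with hairpin 062 against MSH3 and 3 arrays of cells with a control hairpin, labelled KLE shMSH3 062 and KLE shCTRL. These 6 arrays were chosen by their titles from 21 arrays of the study, and all 30113 of its 47323 probes that carry 1 gene name (20046 genes) were followed. The other KLE arrays carry hairpin 059 against MSH3, or hairpins 543 and 603 against MSH6, with 3 arrays each, and serve here only to show where hairpin 062 differs. Each group has 1 array lettered A, 1 lettered B and 1 lettered C. All 15 arrays are of KLE, so every group shares that line's own mutations, and every group, the controls included, carries a hairpin. How the hairpins were delivered, whether cells were cloned or pooled, their target sequences and the time of harvest are not given in the sources used here. Nothing in the labels says that the arrays of a group came from separate cultures, so a p-value measures the spread between arrays, which may be technical. Expression was read as the brightness of probes on Illumina expression arrays, and levels are given as log2 intensity after quantile normalization.

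MSH3 is a mismatch repair protein that serves to recognise loops left by inserted or deleted bases, while MSH6 mainly serves to recognise single mispaired bases. A short hairpin RNA is cut to a small RNA that directs breakdown of messenger RNAs it matches, and it can also lower messenger RNAs that it matches only in part, so hairpins of different sequence against 1 gene are commonly compared. Cancer/testis genes, which recur below, are normally active in germ cells of the testis, silent in most other adult tissues and switched on in many tumours. Many lie on the X chromosome in families of near-identical copies.

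In the 6 arrays the median intensity of a whole array ran from 93.12 to 119.2 and single values from 69.56 to 24680 before normalization. Over all annotated probes and the 15 KLE arrays the median log2 level was 6.72. No detection calls were used here, so how far a probe near that level stands above background is unknown, and a fold that starts there may be too small. The arrays lettered A stood apart from those lettered B and C in every KLE group, and changes were therefore read within letters, with the letter as a block. Of 7 markers of endometrial and Mullerian epithelium, PAX8, EMX2, SOX17 and MSX1 were above a log2 level of 8 in both groups, whereas the hormone receptor genes ESR1 and PGR and the factor FOXA2 stayed near the median probe. None of the 7 passed the test. Among genes of other cell types, 0 of 14 of intestinal epithelium were above that level, while of 19 basal and stratified genes 4 were in the controls and 2 with hairpin 062. Of 12 leukocyte genes 1 was, the macrophage gene CD68 on probe ILMN_2359907 (means 8.82 in control and 8.22 with 062), and of 10 endothelial genes 1 was, the receptor gene TEK on probe ILMN_2066151 (8.23 and 8.02), and neither passed (limma adjusted p 0.378 and 0.50). The summed intensity of the 26 leukocyte probes ran from 3055 to 3233 in the control arrays and from 2964 to 3298 with hairpin 062.

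MSH3 itself was read by a dim and a bright probe, which did not behave alike. On the dim probe, ILMN_1719471, the control arrays A, B and C read 8.72, 8.81 and 8.64 and the 062 arrays read 7.68, 8.12 and 8.27. All 3 arrays with hairpin 062 lay below all 3 controls, with the lowest value in array A. The mean fell by 0.70 on the log2 scale (SE 0.127, n = 3 arrays a group), to 61.4% of the control, with an adjusted p of 0.0292 in limma. In RNA of bulk cells, fewer cells with a transcript and less of it per cell cannot be told apart. Hairpin 059, set against the same control arrays, gave -0.85 on this probe, and 062 differed from 059 by 0.15 (SE 0.127, limma adjusted p = 0.773). On the bright probe, ILMN_2077130, the controls read 13.49, 13.89 and 14.03 and the 062 arrays 13.50, 13.64 and 13.69. Those groups overlapped, because control array A was as low as the 062 arrays, and the difference of -0.19 (SE 0.0707) had a limma adjusted p of 0.292. Without control array A it was -0.29 with a limma adjusted p of 0.0477. Hairpin 059 gave -0.04 on the bright probe against all 3 control arrays (limma adjusted p = 0.929). The dim probe passed no longer when control array A, B or C or 062 array B was left out, with log2 differences from -0.76 to -0.65. MSH6, the gene named by hairpins 543 and 603, was at 10.86 and 10.82 in the means of control and 062, a difference of -0.04 (SE 0.1, limma adjusted p = 0.953). Among 22 mismatch repair genes measured on 44 probes, the dim MSH3 probe was the only one that passed, and the median difference of the list was -0.01.

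Across the array, 230 probes, 0.764% of those tested, passed an adjusted p of 0.05 between hairpin 062 and control. Of these, 99 probes of 93 genes were higher (0.329%) and 131 probes of 121 genes were lower (0.435%). Changes were mostly small, with a median log2 difference of 0.52 among the higher probes and -0.51 among the lower ones. Only 6 genes rose and 12 fell by more than 1 log2 unit. Families of cancer/testis genes supplied both ends of the range, with VCX genes at the top and GAGE genes at the bottom. All 230 probes moved the same way in the pairs A, B and C, and in 187 of them the 3 arrays of one group lay wholly above the other, against 11.5% of all probes. Both follow in part from the selection and are not separate support, since the probes were called on these same arrays with the letter as a block. The count depended strongly on the arrays: it was 1252 without 062 array A and 452 without control array A, but 49, 48, 48 and 47 without 062 array B, 062 array C, control array B or control array C. Without the letter block it was 46, and with median scaling in place of quantile normalization 8 probes were higher and 44 lower.

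**Figure D1:**
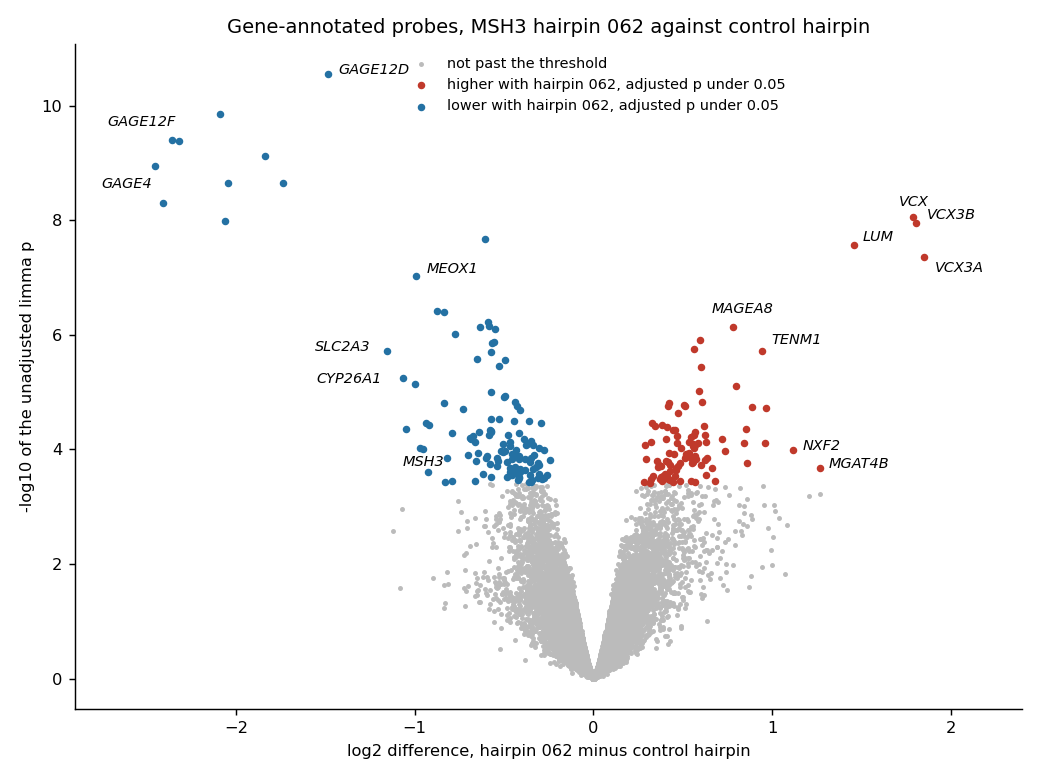
Each point is 1 of 30113 gene-annotated probes, placed by its log2 difference (hairpin 062 minus control hairpin, horizontal axis) and the -log10 of its unadjusted limma p (vertical axis). The 99 higher probes are red, the 131 lower ones blue, and the VCX and GAGE probes stand at the outer right and left.

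The largest rises were of 3 genes of the VCX family, which code for small, highly charged proteins of male germ cells and lie along the short arm of the X chromosome. The VCX3A probe ILMN_2366642 read 7.70, 7.87 and 7.77 in control arrays A, B and C and 9.46, 9.83 and 9.60 with hairpin 062. VCX3B read 7.69, 7.77 and 7.80 against 9.43, 9.62 and 9.63, and VCX read 7.55, 7.77 and 7.74 against 9.25, 9.57 and 9.61. In all 3 genes each array with hairpin 062 lay far above each control array, and the arrays within a group were close together. The rises were 3.61-fold for VCX3A (log2 1.85, SE 0.152, limma adjusted p = 8.8e-05), 3.50-fold for VCX3B and 3.45-fold for VCX. These probes may read the same messenger RNAs, since the copies are near-identical and probe sequences were not used here. A second probe each of VCX3A, ILMN_1741129, and VCX3B, ILMN_3238228, stayed near the median probe and gave 0.13 and 0.11 without passing. VCX2, the family member between VCX and VCX3B on the chromosome, was brightest on probe ILMN_1706028, with means of 8.31 and 8.79, a difference of 0.49 (SE 0.128) and a limma adjusted p of 0.122. The VCY copy on the Y chromosome, on probe ILMN_1683872, went from about 6.9 to 7.32 (log2 0.41, limma adjusted p = 0.0435), and its near-identity to the VCX genes leaves the source of that signal unknown. Of the 15 probes for 5 genes of the family, 4 rose, 13 had a positive difference and the median was 0.13.

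No measured gene between or beside the VCX copies rose by a passing amount. PUDP, a phosphatase gene, STS, the steroid sulfatase gene, and PNPLA4, a lipid hydrolase gene, gave log2 differences of -0.01, -0.10 and -0.11, and 0 of them passed. NLGN4X, a synaptic adhesion gene on the far side of VCX3A, fell on probes ILMN_2341067 and ILMN_1728011, by 0.79 and 0.69 on the log2 scale (limma adjusted p 0.0200 and 0.0224). With hairpins 059, 543 and 603 the first gave -0.23, -0.14 and -1.75 and the second -0.18, -0.06 and -1.01. Of these only the values with 603 passed (limma adjusted p 1.5e-05 and 0.0005). Hairpin 062 did not pass against the other hairpins' mean on either probe (limma adjusted p 0.823 and 0.159). The other 2 NLGN4X probes gave -0.01 and -0.17 with 062 and did not pass. Further out, PRKX gave 0.01 and -0.01 and MXRA5 -0.26, without passing. Beyond VCX3B, ANOS1 had no probe, and FAM9A gave 0.17 and FAM9B 0.12 and 0.05 near the median probe. These did not pass either (limma adjusted p 0.192, 0.409 and 0.886). These neighbours were looked at after the VCX values had been seen.

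The upstream sequences of the VCX copies are printed because the copies moved unequally. Each line holds the 150 bases before the annotated start of the gene, 5′ to 3′ on the gene's strand, from RefSeq on GRCh38.p14, with each CG pair, the site of DNA methylation, in capitals. VCX3A lies at chrX:6535119-6535268 on the minus strand, VCX3B at chrX:8464680-8464829 on the plus strand, VCX2 at chrX:8171268-8171417 on the minus strand and VCX at chrX:7843021-7843170 on the plus strand.
VCX3A: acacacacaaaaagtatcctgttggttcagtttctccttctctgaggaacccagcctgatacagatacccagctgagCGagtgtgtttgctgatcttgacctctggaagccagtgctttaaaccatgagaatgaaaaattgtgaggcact
VCX3B: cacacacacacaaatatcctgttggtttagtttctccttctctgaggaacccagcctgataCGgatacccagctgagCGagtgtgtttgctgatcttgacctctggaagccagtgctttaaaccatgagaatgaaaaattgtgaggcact
VCX2: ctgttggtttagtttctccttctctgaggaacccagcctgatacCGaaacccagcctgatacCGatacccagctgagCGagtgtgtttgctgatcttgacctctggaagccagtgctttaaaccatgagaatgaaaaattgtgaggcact
VCX: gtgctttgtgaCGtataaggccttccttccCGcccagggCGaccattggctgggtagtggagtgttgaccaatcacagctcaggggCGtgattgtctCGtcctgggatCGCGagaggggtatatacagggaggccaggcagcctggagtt
Compared base by base with no gaps, the VCX3A and VCX3B stretches are 91.3% identical, and each is 75.3% identical to VCX2 on that count. The VCX stretch is another sequence, 22.0% identical to that of VCX3A. The CG pair occurs 1 time in the VCX3A stretch, 2 times in VCX3B, 3 times in VCX2 and 7 times in VCX. The median over all 35116 promoters in the same table is 7, and 51.4% of them have at least as many as VCX.

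The VCX rises were also seen against the other hairpins. VCX3A, VCX and VCX3B were 1.51, 1.49 and 1.46 log2 units higher with hairpin 062 than with hairpin 059, the other MSH3 hairpin (limma adjusted p 0.0018, 0.0007 and 0.0007). Against the shared control arrays, VCX3A gave 0.34 with hairpin 059, 0.57 with 543 and -0.64 with 603. VCX2, which had not passed against control, was higher with 062 than with the mean of the other hairpins on probe ILMN_1706028 (limma adjusted p = 5.8e-05). Against control that probe gave 0.49 with 062 and -0.71, -0.51 and -1.415 with hairpins 059, 543 and 603. Most of that gap thus lay with the other hairpins.

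Other germ-cell genes of the X chromosome rose with hairpin 062 from levels close to the median probe. PAGE5, a gene of the same broad antigen superfamily as GAGE, read 6.99, 7.20 and 7.07 in the control arrays and 8.48, 7.82 and 7.86 with hairpin 062 on probe ILMN_1744656. Array A was the highest, and no 062 array reached down to a control array. The rise was 1.95-fold (log2 0.97, SE 0.142, limma adjusted p = 0.0109), and a second probe, ILMN_2363141, gave 0.54 with a limma adjusted p of 0.0628. MAGEA8, a MAGE antigen gene, read 6.92, 6.80 and 6.91 in controls and 7.49, 7.69 and 7.80 with hairpin 062 on probe ILMN_2069915, a clean separation of 0.78 on the log2 scale (limma adjusted p = 0.0010). Its other probe, ILMN_2069912, stayed near the median probe and gave 0.07, with overlapping groups (limma adjusted p = 0.727). NXF2, a nuclear RNA export factor of germ cells, rose on both of its called probes, by 1.12 on ILMN_2253537 and by 0.60 on ILMN_2333829 (limma adjusted p 0.0265 and 0.0341). With hairpins 059, 543 and 603 the differences from control for PAGE5 were -0.14, -0.16 and -0.39 and for MAGEA8 -0.12, 0.03 and -0.33. PAGE5 was 1.11 and MAGEA8 0.90 log2 units higher with 062 than with 059 (limma adjusted p 0.0051 and 0.0008). NXF2 on probe ILMN_2253537 gave 0.48, 0.38 and 0.33 with hairpins 059, 543 and 603, and its excess of 0.64 over 059 did not pass (limma adjusted p = 0.220).

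The largest falls were of the GAGE family, X-linked antigen genes of germ cells and tumours that sit in a tandem array of near-identical copies. GAGE12F read 9.22, 9.61 and 9.68 in control arrays A, B and C and 7.28, 7.14 and 7.14 with hairpin 062, which is 20.1% of the control (log2 -2.32, SE 0.127, limma adjusted p = 3.1e-06). GAGE4 on probe ILMN_1715638 read 9.91, 10.01 and 10.07 against 7.71, 7.49 and 7.44, or 18.3% of the control. GAGE12D, which started lower, read 8.28, 8.32 and 8.27 against 6.93, 6.72 and 6.76. With hairpin 062 each of these genes came within about 1 log2 unit of the median probe, and no arrays of the groups overlapped. Of 13 probes for 12 GAGE genes, 12 probes of 11 genes fell, with a median of -2.05 over the list against 0.00 over all probes. The smallest called falls were of GAGE7 (-0.84) and GAGE12E (-0.39), while GAGE10, near the median probe in all arrays, gave -0.12 and did not pass. The probes cannot be taken as separate genes, since most copies match each other.

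The GAGE genes were also low with the other hairpins. Against the same control arrays, GAGE12F gave -2.06 with hairpin 059, -2.09 with 543 and -2.93 with 603. Since the 4 comparisons share their control arrays, these values are not independent of each other. Directly between hairpins, 062 minus 059 was -0.26 (SE 0.127, limma adjusted p = 0.530) for GAGE12F, and 0 of the 13 probes passed in that comparison or against the mean of the other hairpins, where 2 and 0 had an unadjusted limma p under 0.05.

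The upstream stretch of GAGE12F, at chrX:49560692-49560841 on the plus strand, and that of SPANXA1, at chrX:141584739-141584888 on the minus strand, are printed as the examples of the families that fell, in the same form.
GAGE12F: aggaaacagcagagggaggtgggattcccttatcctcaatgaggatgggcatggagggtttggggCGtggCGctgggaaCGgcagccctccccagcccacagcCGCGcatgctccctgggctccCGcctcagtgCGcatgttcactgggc
SPANXA1: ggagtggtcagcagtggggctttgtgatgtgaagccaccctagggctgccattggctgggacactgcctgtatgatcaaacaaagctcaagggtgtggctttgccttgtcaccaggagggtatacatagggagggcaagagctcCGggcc
Of 9 stretches for GAGE2A and the GAGE genes numbered 12 in the table, 7 have this sequence, GAGE12F included. It holds 7 CG pairs, as the VCX stretch does, and that of SPANXA1 holds 1.

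SPANX genes, which code for proteins of the sperm nucleus, also fell. SPANXA2 read 8.15, 8.55 and 8.35 in the control arrays and 7.57, 7.35 and 7.15 with hairpin 062, or 50.1% of the control (log2 -0.997, SE 0.133, limma adjusted p = 0.0059). SPANXA1 fell by 0.97 on probe ILMN_2233319 and by 0.66 on ILMN_2233314, and SPANXB1, SPANXD and SPANXC fell by 0.95, 0.84 and 0.82 on their strongest probes. Another SPANXD probe, ILMN_1732781, fell by 0.54 (limma adjusted p = 0.0300). Other probes of SPANXB1 (0.05 and -0.03) and SPANXD (-0.26 and -0.02) did not pass. In SPANXA2 the fall was smaller in pair A (-0.59) than in pairs B and C (-1.20 and -1.20). The SPANX genes were also low with the other hairpins. With 059, 543 and 603 SPANXB1 gave -0.53, -0.57 and -1.03, SPANXC -0.63, -0.45 and -0.98 and SPANXD -0.42, -0.59 and -0.74. Only the values with 603 passed in limma, and 062 did not pass against 059 or the other hairpins' mean on these probes. For SPANXA1 and SPANXA2 every array with 059, 543 or 603 lay below every control array. Among 52 listed X-linked cancer/testis genes outside the GAGE and VCX families, 6 fell with 062, the 5 SPANX genes and MAGEC1, a MAGE antigen gene (-0.34), and 2 rose, PAGE5 and MAGEA8. The median over the 108 probes of that list was -0.02. Counted by chromosome, 2.69% of 1337 X-linked probes passed, against 0.674% elsewhere. Outside these cancer/testis lists, 14 of 1206 X-linked probes passed (1.16%). NXF2 is on none of these lists, so its called probes are among the 14. The called GAGE7 probe had no chromosome in the annotation and was counted as elsewhere.

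**Figure D2:**
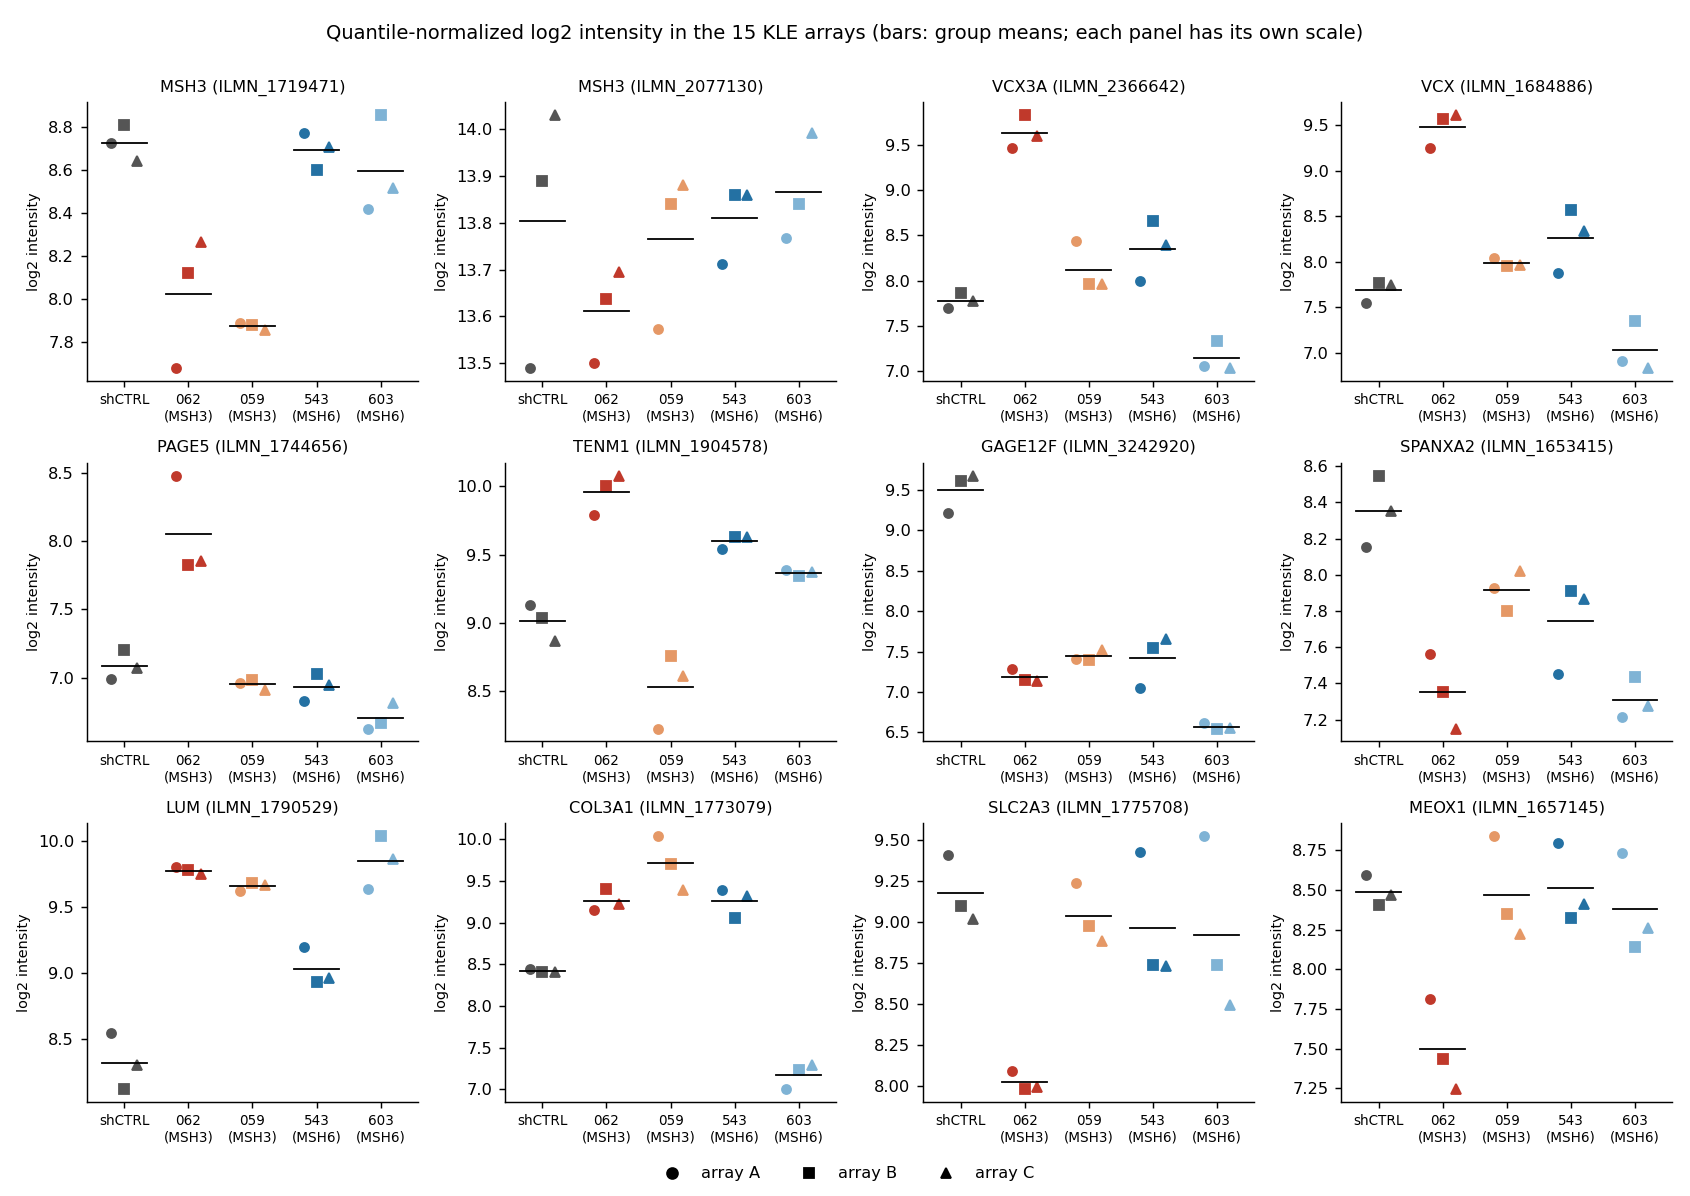
Quantile-normalized log2 intensity of 12 probes in the 15 KLE arrays, by hairpin, with circles, squares and triangles for arrays A, B and C, bars for group means and a separate vertical scale in each panel. The 062 arrays of VCX3A and VCX stand above every other group, those of SLC2A3 and MEOX1 below, and those of GAGE12F and LUM beside other hairpins.

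Among genes of the extracellular matrix and of contractile fibres, 4 rose. LUM, which codes for the collagen-binding proteoglycan lumican, read 8.54, 8.12 and 8.30 in control arrays A, B and C and 9.80, 9.78 and 9.75 with hairpin 062 on probe ILMN_1790529. The 062 arrays were almost level with each other and at least 1 log2 unit above each control array. The rise was 2.74-fold (log2 1.46, SE 0.115, limma adjusted p = 5.8e-05), and the second probe, ILMN_2167805, rose by 0.89 (limma adjusted p = 0.0108). COL3A1, a fibrillar collagen, read 8.44, 8.41 and 8.41 in controls and 9.15, 9.41 and 9.22 with hairpin 062 (log2 0.84, limma adjusted p = 0.0233). TPM2, a tropomyosin, and MYL9, a myosin light chain, rose by 0.42 and 0.45 on probes ILMN_1757604 and ILMN_1776953. The sign was the same in each pair although their arrays overlapped across letters. Other probes of TPM2 (0.42 and -0.05) and MYL9 (0.35) did not pass. Of 35 matrix and mesenchymal genes these 4 rose and 0 fell. On 58 probes that is 5 called, or 8.62%, against 0.329% of all probes called higher, and the list's median difference was 0.02. LUM gave 1.34 with hairpin 059, 0.71 with 543 and 1.53 with 603 against the same controls, and 062 did not pass against 059 (0.12, SE 0.115, limma adjusted p = 0.811). COL3A1 gave 1.30, 0.84 and -1.24 with these hairpins, TPM2 on ILMN_1757604 -0.16, 0.55 and -1.54, and MYL9 on ILMN_1776953 0.21, 0.19 and -0.37.

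TENM1, an X-linked teneurin of neuronal contacts, read 9.13, 9.04 and 8.87 in the control arrays and 9.79, 10.002 and 10.08 with hairpin 062. All 062 arrays lay above all controls, by 0.94 on the log2 scale (SE 0.11, limma adjusted p = 0.0019), or 1.92-fold. Hairpin 059 gave -0.48 against the same controls, and 062 stood 1.43 above 059 (limma adjusted p = 0.0006). These values are of probe ILMN_1904578. Another TENM1 probe, ILMN_1784817, stayed near the median probe and gave 0.07 with 062 (limma adjusted p = 0.818). PCK2, the mitochondrial enzyme that makes phosphoenolpyruvate, read 8.44, 8.25 and 8.35 against 8.98, 9.35 and 9.27 (log2 0.85, limma adjusted p = 0.0189), and was 0.78 higher than with 059 (limma adjusted p = 0.0237). It is a known target of the factor ATF4, and in the list of unfolded protein and ATF4 response genes 0 of 23 passed in limma, with a median of 0.09 and 8 of 31 probes at an unadjusted p under 0.05. UBE2L6, which conjugates the interferon-induced modifier ISG15, rose by 0.80 on probe ILMN_1703108, with pairs A, B and C at 0.40, 1.12 and 0.87. Its brightest probe, ILMN_1769520, gave 0.42 and did not pass (limma adjusted p = 0.266).

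Another set of rises rested mostly on arrays B and C. MGAT4B, a Golgi enzyme that branches N-linked sugars, read 7.75, 8.83 and 8.86 in control arrays A, B and C and 8.16, 10.57 and 10.50 with hairpin 062 on probe ILMN_1722438. The letter differed more than the hairpin did, so the groups overlapped although each pair rose, by 0.42, 1.74 and 1.64. The fitted rise was 1.27 (SE 0.241, limma adjusted p = 0.0356), and a second probe, ILMN_1796106, rose by 0.64. PLD3, an endolysosomal exonuclease, gave pairs of 0.37, 1.19 and 1.31 on probe ILMN_1724324, but its brightest probe, ILMN_1666976, gave 0.15 and did not pass. BIN1, a membrane-bending adaptor, and APLP1, a relative of the amyloid precursor protein, rose by 0.86 and 0.73, again least in pair A (0.57 and 0.46). With hairpins 059, 543 and 603 MGAT4B gave 0.90, 0.92 and 0.91 on ILMN_1722438 and PLD3 0.56, 0.41 and 0.58 on ILMN_1724324. BIN1 gave 0.28, 0.03 and 0.34 and APLP1 0.33, -0.16 and 0.03. None of these values passed in limma, and neither did 062 against 059 in any of these genes.

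Outside the cancer/testis families the deepest fall was of SLC2A3, the glucose transporter GLUT3. It read 9.41, 9.10 and 9.02 in control arrays A, B and C and 8.09, 7.98 and 7.99 with hairpin 062. The 062 arrays were level with each other and below every control, at 44.9% of the control (log2 -1.16, SE 0.135, limma adjusted p = 0.0019). MEOX1, a homeobox factor of mesoderm, read 8.59, 8.40 and 8.47 against 7.81, 7.44 and 7.24, and its second called probe, ILMN_2414568, fell by 0.64. With hairpins 059, 543 and 603 SLC2A3 gave -0.14, -0.21 and -0.26 and MEOX1 on probe ILMN_1657145 gave -0.02, 0.02 and -0.11. Both were lower with 062 than with 059, by -1.01 and -0.97 (limma adjusted p 0.0058 and 0.0007). In the list of 28 glycolysis and hypoxia response genes SLC2A3 was the 1 gene that passed, and the median over 50 probes was -0.01.

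CYP26A1, the enzyme that clears retinoic acid, fell by 1.07 on probe ILMN_1788131 (limma adjusted p = 0.0047), while its 3 other probes stayed near the median probe. On ILMN_1788131 the arrays with 059, 543 and 603 also lay below every control array, from 7.37 to 7.93 against 8.07 or more. The 062 arrays read 7.65, 6.90 and 6.75. KISS1, the precursor of kisspeptin, read 8.15, 8.47 and 8.67 in controls and 7.61, 7.22 and 7.30 with hairpin 062 (log2 -1.05, limma adjusted p = 0.0189), and it gave -0.90, -1.25 and -1.26 with hairpins 059, 543 and 603. IGFBP5, a binding protein of insulin-like growth factors, read 9.91, 9.97 and 10.02 against 9.34, 8.92 and 8.84 on probe ILMN_1750324 (log2 -0.94, limma adjusted p = 0.0167). It gave -0.25, 0.36 and 1.13 with hairpins 059, 543 and 603, and it was the 1 of 14 genes of the insulin-like growth factor list that passed. Epithelial genes among the falls were KRT16, a stress keratin, by 0.92, LAMB3, a laminin chain, by 0.79, MUC16, the mucin that carries the CA125 antigen, by 0.65, and DSP, desmoplakin, by 0.42. Other probes of KRT16 (0.04), LAMB3 (0.08 and -0.09) and DSP (-0.03 and -0.13) did not pass. The DSP fall had a limma adjusted p of 0.0480 and passed in 7 of 20 other settings. KRT16 read 7.72, 8.07 and 8.22 in control arrays A, B and C and 7.39, 6.97 and 6.90 with hairpin 062. LAMB3 read 7.96, 8.76 and 8.80 against 7.81, 7.73 and 7.62, and MUC16 7.75, 7.69 and 7.51 against 7.25, 6.92 and 6.84. KRT16 and LAMB3 were 2 of 19 basal and stratified genes, MUC16 1 of 16 endometrial genes and DSP 1 of 26 junction genes. In these lists 0 genes passed as higher. By probe the calls were 2 of 33, 1 of 25 and 1 of 41, against 0.435% of all probes called lower. The list medians were 0.008, 0.016 and 0.019. In that order 3, 2 and 5 probes were higher and 3, 2 and 2 lower at an unadjusted limma p under 0.05. The other hairpins shared part of the falls of KRT16, LAMB3, MUC16 and DSP. LAMB3 read 7.31, 7.27 and 7.11 with 059, 7.49, 7.96 and 7.76 with 543 and 6.62, 6.93 and 6.88 with 603. KRT16 read 7.12, 7.19 and 7.18 with 059, 6.97, 7.23 and 7.15 with 543 and 7.7, 7.82 and 8.09 with 603. MUC16 lay between 062 and control in each letter with 059 and 543, and read 7.15, 6.65 and 6.88 with 603. DSP gave -0.18, 0.07 and -0.25 with 059, 543 and 603.

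**Figure D3:**
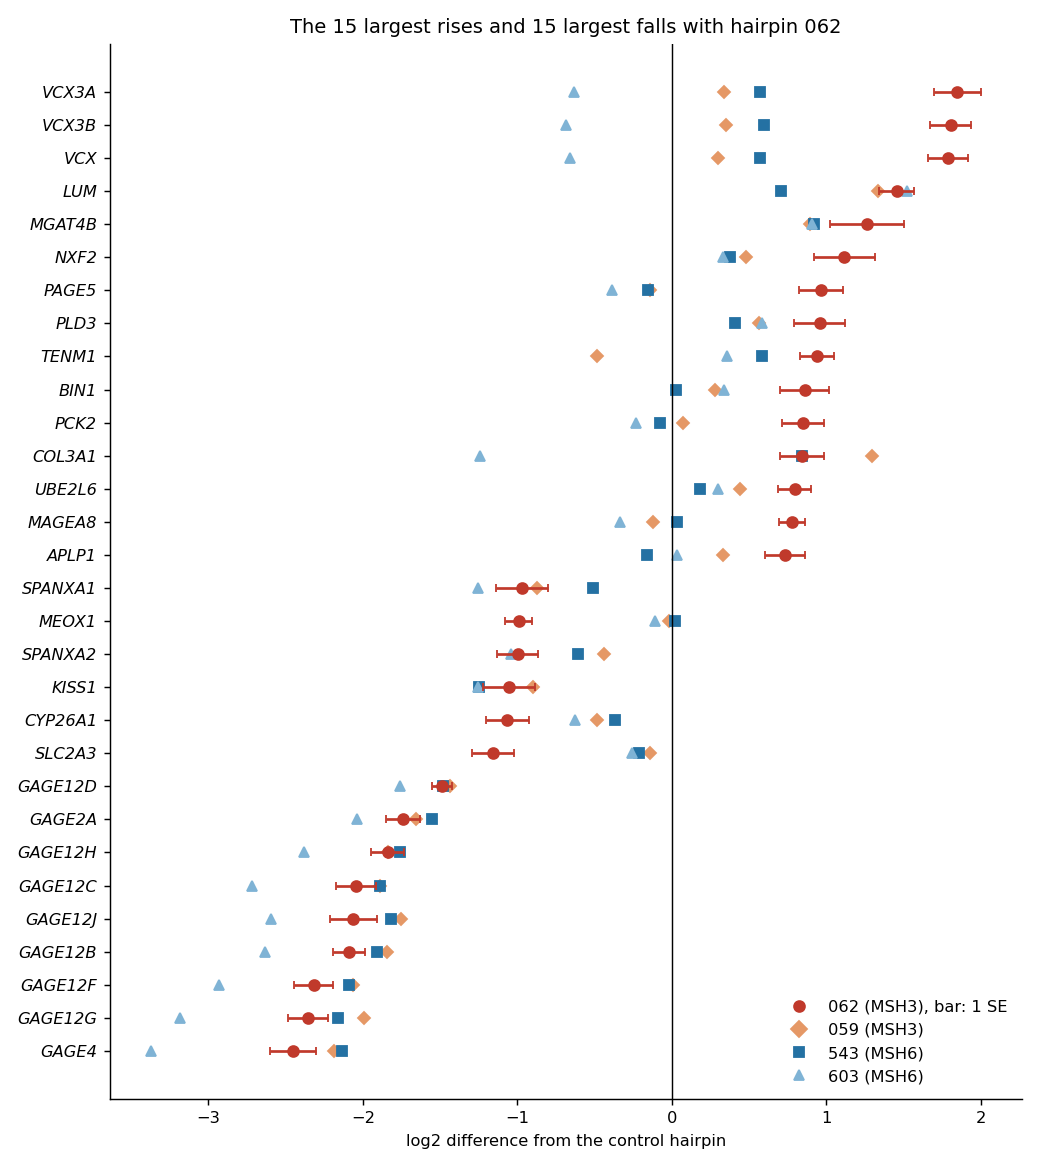
Log2 difference from the control hairpin for the 15 genes that rose most and the 15 that fell most with hairpin 062, with 1 SE for 062, beside the values of hairpins 059, 543 and 603 against the same control arrays. All hairpins lie on the same side of 0 for the GAGE genes, LUM and KISS1, with unequal sizes (GAGE12F -2.32 with 062 and -2.93 with 603). The same holds for SPANXA1, SPANXA2, CYP26A1, SLC2A3, MGAT4B, PLD3, NXF2, BIN1 and UBE2L6. The 062 value lies apart for VCX, PAGE5, MAGEA8, SLC2A3 and MEOX1.

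Interferon-stimulated genes, a set of antiviral effectors switched on together by interferon, separated the 062 arrays from each other. Over 58 probes of 40 genes the median difference from control was 0.46, and 54 probes were positive, but 1 passed, SAMD9L, a growth-restraining antiviral factor (log2 0.57, limma adjusted p = 0.0292). In pair A the list's median was -0.02, with 25 of 58 probes higher, against 0.72 in pair B and 0.66 in pair C, with 55 of 58 higher in each. MX1, an antiviral GTPase, read 10.52, 10.26 and 10.15 in control arrays A, B and C and 10.27, 11.65 and 11.61 with hairpin 062. IFI27, an interferon-induced mitochondrial protein, read 10.29, 11.06 and 11.11 in controls and 10.46, 12.17 and 12.32 with hairpin 062. Array A was thus near its control in both genes and arrays B and C were more than 1 log2 unit above theirs, and the differences of 0.87 and 0.83 did not pass (limma adjusted p 0.332 and 0.137). An unadjusted p under 0.05 was reached by 43 of the 58 probes, against 11.5% of all probes. With the A arrays of every group left out, 45 of the 58 probes passed, all higher, where 3188 of all 30113 probes passed (10.6%). With the B or the C arrays left out instead, 0 of 58 passed in limma, and 6 and 8 had an unadjusted p under 0.05. Whether array A differs in the hairpin's effect or in its culture was not tested, since it is 1 array.

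CCL2 and ALDH1A3 split the 062 arrays the other way, without passing. CCL2, which attracts monocytes, read 11.09, 11.41 and 11.48 in control arrays A, B and C and 11.40, 9.66 and 9.69 with hairpin 062. ALDH1A3, an enzyme that makes retinoic acid, read 9.24, 9.28 and 9.36 against 10.26, 8.46 and 8.48 on probe ILMN_1807439. Array A was above its control and arrays B and C were below theirs in both genes, with limma adjusted p-values of 0.336 and 0.889 against control. Of 22 genes of the list of NF-kB chemokines and cytokines 0 passed in limma (3 of 28 probes at an unadjusted p under 0.05), with a median of -0.04, and with the A arrays left out 2 of its probes passed as higher and 9 as lower, where 1616 and 1572 of all 30113 probes did. The 20 measured genes of HLA class I antigen presentation gave 0 calls in limma (8 of 34 probes at an unadjusted p under 0.05) and a median of 0.11, with pair medians of 0.06, 0.17 and 0.14.

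**Figure D4:**
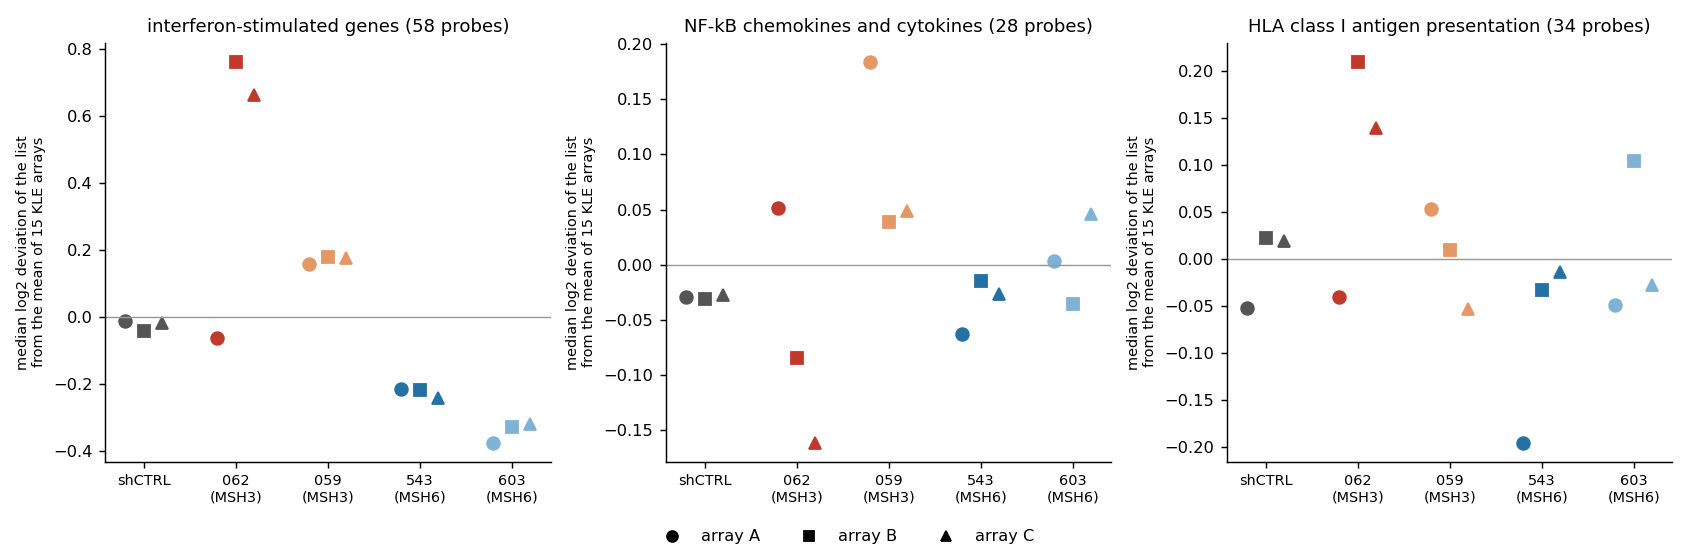
Median over the probes of 3 gene lists of the log2 deviation from each probe's mean over the 15 KLE arrays, by hairpin and array letter. For interferon-stimulated genes, 062 arrays B and C stand at 0.76 and 0.66 while array A, at -0.06, lies with the control arrays.

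Lists for other processes held few calls. Of 34 genes driven by E2F for DNA replication, 31 of break and crosslink repair, 29 of excision repair, 22 p53 targets, 39 of the respiratory complexes, 12 of DNA methylation, 19 of cholesterol synthesis and 21 of RNA sensing and interferon signalling, 0 passed in limma, and in that order 11 of 49, 5 of 58, 7 of 49, 5 of 36, 2 of 46, 5 of 27, 4 of 26 and 9 of 31 probes had an unadjusted p under 0.05, beside 3473 of all 30113. A single gene passed among 35 of G2 and mitosis, the kinetochore motor CENPE (-0.35), and 1 among 57 ribosomal protein genes, RPL9 (0.29). The medians of these lists lay between -0.10 and 0.08. Of the 7 measured neighbours of MSH3 on its chromosome 0 passed (2 of 9 probes at an unadjusted p under 0.05), with a median of -0.02. The lists of small RNA processing, YAP and TGF-beta responsive, kallikrein, histone cluster, and heat shock and metallothionein genes also had 0 calls in limma, with 3 of 25, 2 of 29, 2 of 24, 2 of 18 and 4 of 30 probes at an unadjusted p under 0.05. Those of intestinal epithelium, leukocytes and endothelium had 0 calls too, with 1 of 15, 4 of 26 and 0 of 13 such probes.

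Hairpin 062 was compared directly with hairpin 059, since both are labelled as directed at MSH3. Here 258 probes passed (0.857%), 134 higher with 062 (0.445%) and 124 lower (0.412%), although the dim MSH3 probe did not differ between them by a passing amount. Apart from VCX3A, VCX, VCX3B and TENM1, the largest excess with 062 was of MT1H, a metallothionein, at 1.30 (SE 0.171, limma adjusted p = 0.0057). The largest deficits were of CA2, a carbonic anhydrase, at -1.56, LTB, a lymphotoxin, at -1.46, RIPOR3 at -1.46, COL16A1, a minor collagen, at -1.25, and CCL20, a chemokine, at -1.14. CA2 read 10.70, 10.06 and 9.79 with hairpin 059 and 9.48, 8.20 and 8.18 with hairpin 062, against 9.01, 8.76 and 9.01 in controls. For CA2, RIPOR3 and COL16A1 most of the gap lay with hairpin 059, whose differences from control were 1.25, 1.31 and 1.01. The count was 29 without the letter block, 2419 without the A arrays of all groups and 0 without the C arrays, where 1570 probes had an unadjusted limma p under 0.05.

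Against the mean of hairpins 059, 543 and 603, 1021 probes passed (3.39%), 533 higher (1.77%) and 488 lower (1.62%). The highest were IFI27 at 2.45 (SE 0.184) and MX1 at 1.94 (SE 0.278), followed by VCX3A, VCX3B and VCX at 1.76, 1.72 and 1.72. In IFI27 hairpins 543 and 603 had means of 9.46 and 7.65, below the control mean, so part of the gap lies with the MSH6 hairpins. Of the 58 interferon probes, 34 were higher and 0 lower in this comparison. Against 059 alone 1 was higher and 0 lower, with 14 at an unadjusted limma p under 0.05. The list's median deviation ran from -0.241 to -0.214 in the 543 arrays and from -0.375 to -0.319 in the 603 arrays. In the control arrays it ran from -0.04 to -0.01 and with 059 from 0.16 to 0.18. Part of the count of 34 thus also lies with the MSH6 hairpins. The lowest were CCL2 (-1.44), COL16A1 (-1.44), IGFBP5 (-1.35), ALDH1A3 (-1.35) and SULF1, a heparan sulfate editing enzyme (-1.18).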

How the data were processed

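Total RNA of cultured cells was labelled and read on Illumina expression arrays. The deposited intensity values are linear probe intensities exported with GenomeStudio, per the submitters' processing notes; its version is not given in the sources used here, and the values show no normalization between arrays. Detection p-values were not used here. All 21 arrays were quantile-normalized and put on the log2 scale with no pseudocount. The 15 KLE arrays were fitted with limma 3.58.1 in R 4.3.3 (lmFit, eBayes) with group and array letter as terms, leaving 8 residual degrees of freedom, and two-sided p-values were adjusted by Benjamini-Hochberg over all 30113 probes with 1 gene name, with no filter on low values. Probes with several genes (8) or none (17202) were left out. Gene names come from the platform annotation, of which 30074 probes matched RefSeq by Entrez identifier. Promoter sequence is RefSeq's. The fit was tested on simulated data.

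Letters pair the arrays: deviations from group means of 062 and control arrays correlated across probes, which are not independent, at 0.624 for A, 0.455 for B and 0.450 for C, and over the 10 pairs of KLE groups the lowest was 0.349. B with C correlated as closely, so letters B and C are not told apart.

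Genes named are the 15 largest rises and 15 largest falls past the threshold with the same sign in the 3 pairs, all MSH3 and MSH6 probes, up to 4 called members of each of 33 gene lists (or the member with the lowest p), and the 5 largest of each direction against 059 and against the other hairpins. Others named (neighbours of VCX and globin genes, further GAGE, SPANX and MAGE members) were chosen after their values were seen. Members and lists were chosen with earlier results of these data known.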

Additional observations from a re-analysis of the deposited data

Results flagged for a closer look

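The labels name MSH3 as the target of hairpins 062 and 059, and 10 genes were singled out because their level differed between these hairpins in the limma test of 062 minus 059 itself. Higher with 062 were VCX3A by 1.51, VCX by 1.49, VCX3B by 1.46, TENM1 by 1.43 and MT1H by 1.30 log2 units. Lower were CA2 (-1.56), LTB (-1.46), RIPOR3 (-1.46), COL16A1 (-1.25) and CCL20 (-1.14). Against control, TENM1 rose by 0.94 with 062, while its -0.48 with 059 did not pass (limma adjusted p = 0.0762). The values of MT1H were 0.49 with 062 and -0.81 with 059, and neither passed (limma adjusted p 0.262 and 0.0526). Those of LTB were -1.12 and 0.34 and those of CCL20 -0.60 and 0.54, and none of these passed either (limma adjusted p 0.126, 0.785, 0.279 and 0.362). Within 062, LTB was -0.22 in pair A and -1.54 and -1.61 in pairs B and C, and the part of array A in the result was not tested. With 3 arrays a group no array could be singled out by its distance from the others.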

How the results depend on the processing

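Without the replicate block the counts of probes past the threshold were 46 for 062 against control, 29 against 059 and 175 against the mean of the other hairpins. With only the arrays of the groups compared and the block they were 15, 10 and 765. Median scaling gave 52, 36 and 306, and values as deposited 16, 17 and 149, where the median of all probes was -0.07, 0.16 and 0.09. Under these scalings 15.4% and 18.8% of the calls against control were higher, 100% and 100% against 059, and 90.5% and 94.6% against the other hairpins, in place of 43.0%, 51.9% and 52.2%; with trend and robust the first was 53.8%. Leaving out arrays gave 9 to 3188 calls against control, 0 to 2419 against 059 and 17 to 3632 against the others, high where letter A and low where B or C was left out.

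The dim MSH3 probe did not pass without the block (-0.70), with only the compared groups (-0.70), with median scaling (-0.79) or as deposited (-0.84), and ran from -0.87 to -0.53 with arrays left out. The bright probe was -0.36 with median scaling and -0.42 as deposited, and ran from -0.30 to -0.12. The causes were not tested. The 1-probe-per-gene setting holds no dim MSH3 probe. No named probe that passed changed sign under any setting run. Of 48 named called probes other than MSH3, 22 passed with median scaling and 15 as deposited; GAGE12B, GAGE12C, GAGE12D, GAGE12F, GAGE12G, GAGE12H, GAGE2A and VCX passed in all 20 settings. With 3 arrays a group and no detection calls used, small changes and dim probes are poorly resolved.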

Other observations

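In the beta-globin region of chromosome 11, 3 genes rose from levels near the median probe. HBE1, the embryonic globin, read 7.12, 7.25 and 7.24 in control arrays A, B and C and 7.57, 7.85 and 7.89 with hairpin 062 (log2 0.57, SE 0.0928, limma adjusted p = 0.0200). HBG2, a fetal globin, rose by 0.48 (limma adjusted p = 0.0323), and OR51B4, the odorant receptor gene beside HBE1, by 0.33 (limma adjusted p = 0.0167). In all 3 genes no 062 array overlapped a control array. HBG1 gave 0.27 (limma adjusted p = 0.114), HBD 0.15 and HBB 0.02, and these did not pass. Nor did the odorant receptor genes further out, OR51B2 (0.02), OR51B5 (0.02 and 0.03), OR51B6 (0.06), OR52A1 (0.07), OR52A5 (0.05 and -0.06) and OR51V1 (0.0045). HBG1 and HBG2 are near-identical, so their probes may share signal. With hairpins 059, 543 and 603 HBE1 gave -0.28, -0.06 and -0.18 against the same controls, and 062 was above their mean (limma adjusted p = 0.0004). These genes were picked from the called probes after their values were seen.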
